A study of Mus musculus with 9 samples.

Results

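The genes described here are the 4 signaling receptors for fibroblast growth factors (Fgfr1, Fgfr2, Fgfr3 and Fgfr4), the receptor-like gene Fgfrl1, and 3 ligands that neural cells can make themselves (Fgf1, Fgf2 and Fgf9). They were chosen by name, as the rows whose Ensembl identifiers carry these symbols, and all 8 were found among the 55704 genes of the table. These genes and the gene lists below were chosen with earlier results of these data known. Their counts beside the shares of all genes are therefore a description. All 8 were among the 20207 genes tested, whose FPKM (fragments per kilobase of gene, scaled to library size) averaged 0.1 or more over all libraries. Fgfr4 passed that limit narrowly and only through the bFGF/BMP4 libraries, where it was highest. Fgf9 passed it only through the BMP4 libraries, where it was highest. Bulk RNA-seq covered 9 libraries of neural stem cells (NSCs) from the subventricular zone of adult C57BL/6 mice, in 3 groups of 3 that the study describes as biological replicates. One isolation pooled 2 female and 2 male mice aged 8 to 9 weeks, and the cells had passed through at least 3 passages before they were plated on poly-L-ornithine and laminin. Whether the 3 libraries of a group came from separate isolations is not given in the sources used here, so p-values measure the spread between these libraries. bFGF/EGF-treated NSCs, the proliferating control, were held on the plate with 20 ng/mL bFGF and 20 ng/mL EGF for 16 to 18 h and collected at day 0. bFGF/BMP4-treated NSCs then received 20 ng/mL bFGF and 20 ng/mL BMP4 for 6 days, and BMP4-treated NSCs received 20 ng/mL BMP4 without bFGF or EGF for 6 days. The bFGF/EGF-treated NSCs were therefore the control at another time, and in both comparisons with them the treatment and the days in culture cannot be told apart. The comparison of BMP4 with bFGF/BMP4 was made at the same day and differed by the added bFGF.

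Fibroblast growth factors bind receptor tyrosine kinases together with heparan sulfate chains on the cell surface, and the bound receptors pair, phosphorylate each other and pass the signal through the adaptor FRS2 to the RAS/ERK cascade. bFGF is the protein encoded by Fgf2, and it is a standard mitogen for NSCs in culture. FGF receptor 3 is known from radial glia and astrocytes, and Fgf1 and Fgf2 encode ligands without a classical signal peptide that leave the cell by an unusual route. The bFGF in the medium was recombinant protein, so the RNA values of Fgf2 describe only the cells' own gene.

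Each library held 15892854 to 17419822 fragments on genes, and log2 values correlated across genes at 0.950 or more within a group and at 0.915 or less between groups (genes are not independent replicates). Summed FPKM of 10 NSC markers, most of it from Fabp7 and Vim in the control and BMP4 libraries, was 1718 to 1828 in the control, 722 to 825 with bFGF/BMP4 and 1541 to 1986 with BMP4 alone. By the threshold given below, 2 of these markers were called higher and 4 lower in bFGF/BMP4, and 4 higher and 1 lower in BMP4, than in the control. Beside these and the astrocyte counts that follow, 30.6% and 36.6% of all genes tested were called in either direction. Mean FPKM of Sox2 was 167, 137 and 137 in the 3 groups, that of Nes, a gene of the labelled cell type, was 151, 3.55 and 15.8, and that of Prom1 was 0.660, 0.151 and 2.49. Summed FPKM of 10 mature astrocyte markers was 261 to 351, 1819 to 2281 and 2522 to 2558 in the same order, and 9 of the 10 were higher in each BMP4-containing group than in the control. The 7 markers of oligodendrocyte precursors summed to 1592 to 2282, 1351 to 1852 and 229 to 446, most of it from Olig1 and Olig2. Group means were at most 0.767 for Pdgfra, Sox10 and Gpr17, and 3.27 to 47.4 for Cspg4 and Lhfpl3. The 10 markers of neurons and neuroblasts summed to 82.0 to 98.1, 57.3 to 63.5 and 161 to 236, most of it from Map2 and Tubb3. Ependymal markers, mostly Foxj1, summed to at most 12.4 in the control and bFGF/BMP4 libraries and to 58.0 to 70.1 in the BMP4 libraries. Oligodendrocyte markers summed to 19.2 to 59.9 over all libraries, and microglial, vascular and mural, and fibroblast markers to at most 1.75, 5.66 and 0.376. The part of these cell type markers in the results on the FGF genes was not tested. In bulk RNA, fewer cells of a type and less RNA per cell cannot be told apart.

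A gene is called higher or lower where the adjusted p-value (limma on log2(FPKM + 0.1), Benjamini-Hochberg over all 20207 genes) was at most 0.05 and the fold change was at least 2. In bFGF/BMP4-treated compared with bFGF/EGF-treated NSCs, 5 of the 8 genes were called, all higher: Fgf1, Fgfr2, Fgfrl1, Fgf2 and Fgfr1. In that comparison 30.6% of all genes tested were called, 16.5% higher and 14.1% lower. In BMP4-treated compared with bFGF/EGF-treated NSCs, 4 of the 8 were called, all higher (Fgfr2, Fgf2, Fgf1 and Fgf9), beside 36.6% of all genes in either direction, 21.3% higher and 15.4% lower. Fgf1, Fgfr2 and Fgf2 were higher in both, as were 12.7% of all genes. Between the day 6 groups, 3 were higher in BMP4 (Fgf2, Fgf9 and Fgfr2) and 1 was lower (Fgfrl1), beside 13.5% of all genes in either direction, 8.41% higher and 5.14% lower. With no fold threshold, 6, 7 and 6 of the 8 genes passed in the 3 comparisons, beside 48.6%, 54.9% and 21.1% of all genes. The libraries of the groups compared did not overlap for 7, 7 and 6 of the 8 genes, beside 57.7%, 60.4% and 38.7% of all genes. Fgf9 was among the genes without overlap in all 3 comparisons. It was also among those passing with no fold threshold in BMP4 against each other group. These counts and the medians below include Fgfr4 and Fgf9, which were tested only through the group where each was highest, so they are a description. Without Fgf9, 3 genes were higher in BMP4 than in bFGF/EGF and 2 than in bFGF/BMP4. The median log2 fold change of the 8 genes was 1.25, 1.58 and -0.31 in these comparisons, and that of all genes tested was 0.06, 0.10 and 0. The first 2 comparisons share their control libraries, and the 3 comparisons are made from the same 9 libraries.

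**Figure D1:**
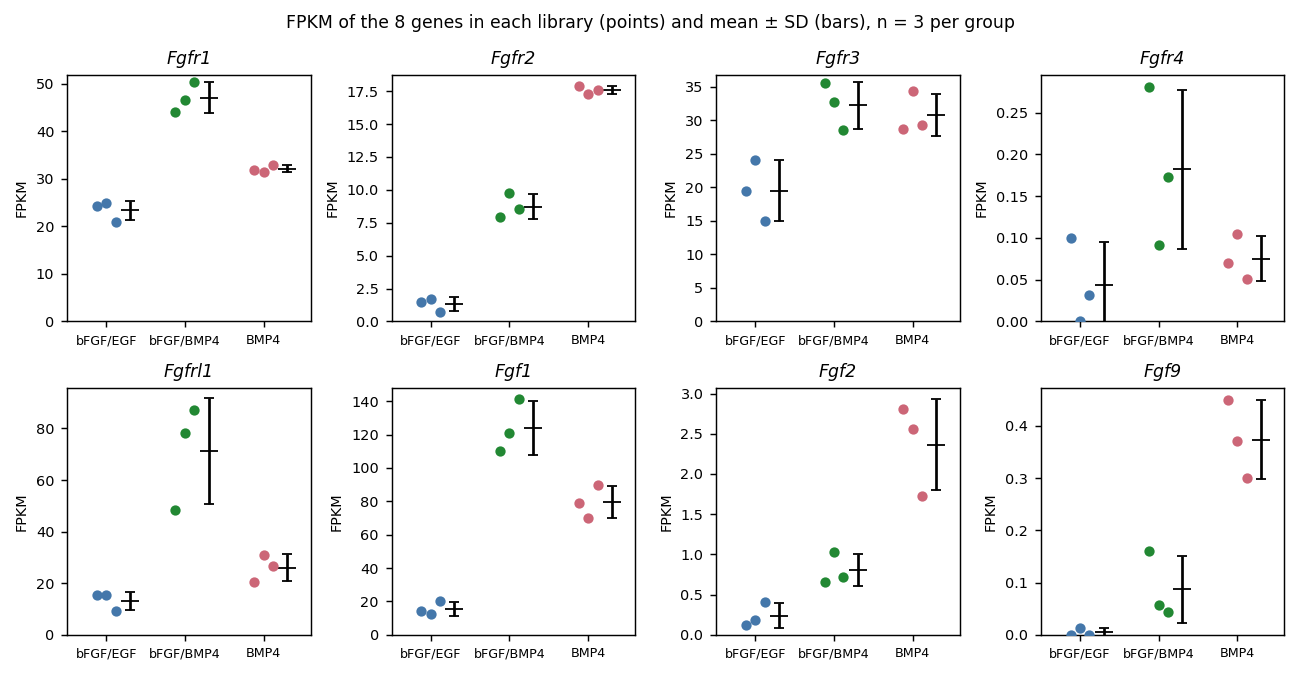
FPKM (vertical axes, each starting at 0 and with its own range) of the 8 FGF receptor and ligand genes in each library of the 3 treatments. Points are libraries, and bars are the mean ± SD of 3 libraries, drawn only above 0. Fgf1, Fgfr1 and Fgfrl1 were highest in bFGF/BMP4, while Fgfr2, Fgf2 and Fgf9 were highest in BMP4.

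Fgfr2 showed the largest log2 difference from the control among the receptors. It encodes the receptor whose splice forms serve epithelial and mesenchymal tissues, and the gene (ENSMUSG00000030849) is annotated on the minus strand of GRCm39 at chr7:129763471-132725079, a span set by a long transcript that reaches into Ctbp2. Its upstream stretch is shown because it lies outside annotated exons and is the start region of the receptor that changed most. These are the 250 bases before the RefSeq start of Fgfr2, read on the minus strand at chr7:129868539-129868788 of GRCm39, with nothing capitalised because neither letter string searched is in it:
Fgfr2: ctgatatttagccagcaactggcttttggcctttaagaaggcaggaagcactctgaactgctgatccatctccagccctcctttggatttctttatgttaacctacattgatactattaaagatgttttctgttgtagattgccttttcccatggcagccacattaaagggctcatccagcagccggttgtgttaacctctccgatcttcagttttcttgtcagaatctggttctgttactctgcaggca
This stretch was 44.0% G or C, compared with a median of 52.4% over 32851 such stretches in the RefSeq table. It held neither GGCGCC, a GC-rich string known to be bound by SMAD proteins, nor CCGGAA, which holds the core letters of ETS factor sites, on either strand, and 9.59% and 12.03% of all stretches held them. Of the stretches for the other genes, those of Fgf2 and both of Fgfr3 held GGCGCC once each, those of Fgfr4 and Fgfrl1 held CCGGAA once each and that of Fgf9 held neither. They were 44.8% (Fgf9) to 73.6% (Fgfrl1) G or C, and their letters are not shown because they run into annotated exons. Fgfr1 and Fgf1 have no entry in that table. A match is only a match of letters, and it says nothing of binding.

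The level of Fgfr2 was 1.5, 1.73 and 0.734 FPKM in the control, 7.91, 9.74 and 8.51 with bFGF/BMP4 and 17.9, 17.3 and 17.6 with BMP4 alone. The 3 groups formed separate steps with no overlap, and the BMP4 libraries were nearly equal to each other. The log2 fold change was 2.70 (SE 0.25, adjusted p = 1.8e-05) in bFGF/BMP4 and 3.72 (SE 0.25, adjusted p = 1.6e-06) in BMP4 compared with bFGF/EGF. BMP4 exceeded bFGF/BMP4 by 1.01 (SE 0.25, adjusted p = 0.0173), which is just past the 2-fold threshold. That last difference was 0.94 with TPM scaling or a pseudocount of 1 and 0.997 with median-ratio scaling, under the threshold, and it was 0.94 to 1.02 with adjusted p of 0.0537 to 0.0665 without bFGF/BMP4 replicate 1 or 3 or any one BMP4 library. Exons of Fgfr2 share 314 bases on the same strand with Ctbp2, a transcriptional co-repressor gene. The FPKM of Ctbp2 was 12.4 to 14.8 in the control, 7.1 to 7.7 with bFGF/BMP4 and 6.68 to 8.78 with BMP4 alone. It was lower in both day 6 groups than in the control, and the day 6 groups overlapped. The part of the shared bases in the values of Fgfr2 was not tested.

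Fgfr1 encodes the main receptor for bFGF on neural progenitors and was, with Fgfr3, the most abundant kinase receptor gene per length. The gene (ENSMUSG00000031565) lies on the plus strand at chr8:26003670-26066824. It was at 24.2, 24.9 and 21.0 FPKM in the control, 44.0, 46.6 and 50.5 with bFGF/BMP4 and 31.9, 31.5 and 33.0 with BMP4 alone. No group overlapped another, and the BMP4 libraries lay between the others. The rise in bFGF/BMP4 had a log2 fold change of 1.01 (SE 0.11, adjusted p = 3.6e-05), which sits on the 2-fold threshold. It was 0.90 with limma-voom, 0.997 with TPM scaling, 0.98 with median-ratio scaling or a pseudocount of 1, 0.93 without bFGF/EGF replicate 3 and 0.96 without bFGF/BMP4 replicate 3, all under 2-fold. BMP4 was 0.46 above bFGF/EGF (adjusted p = 0.0040) and 0.55 below bFGF/BMP4 on the log2 scale (adjusted p = 0.0043), both under 2-fold. Of its exon bases, 125 are shared with Gm16159 on the opposite strand, which was at 0.943 FPKM or less.

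Fgfr3 (ENSMUSG00000054252, plus strand, chr5:33879018-33894412) encodes the receptor known from radial glia and astrocytes. Its FPKM was 19.5, 24.0 and 15.0 in the control, 35.5, 32.7 and 28.5 with bFGF/BMP4 and 28.7, 34.3 and 29.2 with BMP4 alone. Both day 6 groups lay above the control libraries and overlapped each other fully. The log2 fold changes against bFGF/EGF were 0.74 in bFGF/BMP4 and 0.67 in BMP4 (SE 0.17, adjusted p = 0.0050 and 0.0072), both below the 2-fold threshold. Between the day 6 groups the difference was -0.07 (SE 0.17, adjusted p = 0.84). The summed mature astrocyte markers were also higher in both day 6 groups than in the control, with the ranges given above. Unlike Fgfr3, their sum was higher in BMP4 than in bFGF/BMP4, without overlap, but the markers did not move as a group. Between the day 6 groups, 4 of the 10 were called higher and 2 lower in BMP4, beside 13.5% of all genes in either direction. Mean FPKM of Aqp4 was 212 in bFGF/BMP4 and 778 in BMP4. That of Slc1a2 was 175 and 65.5, and that of Glul was 522 and 416. Of these markers Aldh1l1 went the other way from the control, with mean FPKM of 135, 24.2 and 58.1 in the control, bFGF/BMP4 and BMP4. The exons of Fgfr3 share 1157 bases with G630022F23Rik on the opposite strand, which stood at 0.221 to 0.575 FPKM.

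Fgfr4 (ENSMUSG00000005320, plus strand, chr13:55300352-55316572), the receptor known for its part in liver bile acid control, was near the detection limit. Whole fragment numbers rebuilt from the FPKM were 6, 0 and 2 in the control, 16, 5 and 9 with bFGF/BMP4 and 4, 6 and 3 with BMP4 alone. The ranges overlapped in each comparison and none was called, with log2 differences of 0.97, 0.33 and -0.64 (SE 0.44, adjusted p = 0.0915, 0.55 and 0.36). The bFGF/BMP4 group held 30 fragments and the bFGF/EGF group 8, a ratio of 4.11 after scaling (exact 95% interval 1.84 to 10.4, counting error only). With limma-voom on fragment numbers the log2 difference was 2.24 (adjusted p = 0.0256) and would be called. Mean FPKM was 0.0439 in bFGF/EGF and 0.0752 in BMP4, both under the 0.1 limit. The gene was therefore tested only because of its level in bFGF/BMP4 (0.182), and these values are given as a description.

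Fgfrl1 (ENSMUSG00000008090, plus strand, chr5:108840206-108858366) encodes a receptor-like membrane protein that binds FGFs but lacks the kinase. It was at 15.2, 15.3 and 9.26 FPKM in the control, 48.2, 78.2 and 87.2 with bFGF/BMP4 and 20.6, 30.9 and 26.8 with BMP4 alone. Each group was separate, and the lowest bFGF/BMP4 library was still well above the highest BMP4 library. Fgfrl1 rose by a log2 fold change of 2.41 in bFGF/BMP4 (SE 0.27, adjusted p = 5.2e-05) and was lower in BMP4 than in bFGF/BMP4 by -1.42 (adjusted p = 0.0037). It was the one gene of the 8 called as highest in bFGF/BMP4 against both other groups, a pattern called in 2.01% of all genes tested. BMP4 exceeded bFGF/EGF by 0.99 (adjusted p = 0.0101), just under 2-fold, and by 1.05 with quantile normalization or 1.10 to 1.15 without bFGF/EGF replicate 1 or 2 or BMP4 replicate 1, which would be called. Its exons share 170 bases with Gm42151 on the opposite strand. At its highest this gene without a kinase had a larger FPKM (71.2 ± 20.4, SD, n = 3) than Fgfr1 (47.0 ± 3.24).

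**Figure D2:**
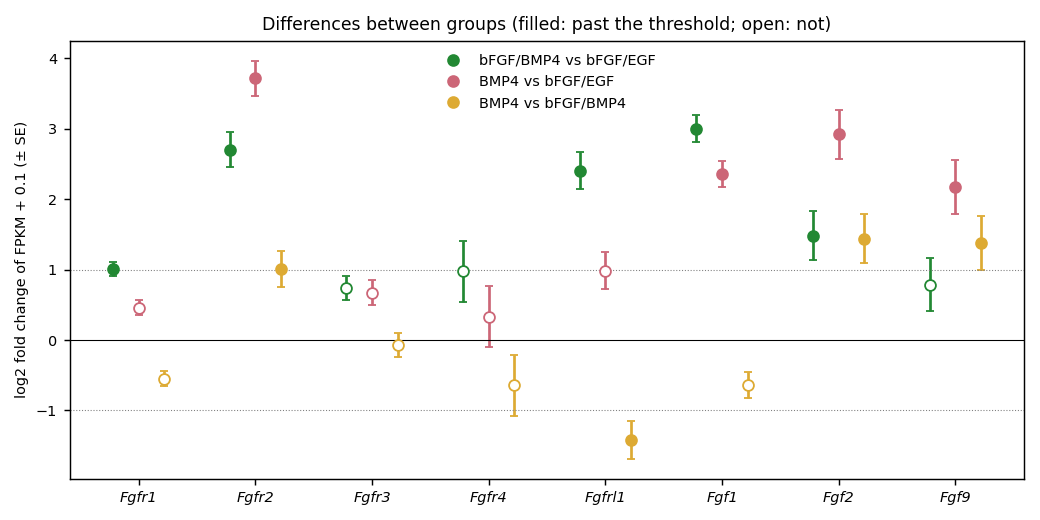
Log2 fold changes of FPKM + 0.1 (vertical axis) with their standard errors for the 8 genes in the 3 comparisons, the first named group minus the second. Filled points passed an adjusted p of 0.05 and 2-fold (dotted lines), and open points did not. Fgfr2, Fgf2 and Fgf9 lie above 0 in all 3 comparisons, while Fgfrl1 and Fgf1 lie above 0 against bFGF/EGF and below it for BMP4 against bFGF/BMP4.

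The 4 kinase receptors were also compared as shares of their summed FPKM, which is a measure per gene length. The sum was 44.2 ± 6.99 FPKM in the control, 88.2 ± 0.831 with bFGF/BMP4 and 80.5 ± 2.43 with BMP4 alone (SD, n = 3). Fgfr2 made up 2.00 to 3.42% of it in the control, 9.02 to 10.9% with bFGF/BMP4 and 20.8 to 22.8% with BMP4 alone, with no overlap between groups. The share of Fgfr1 was 49.1 to 57.2%, 50.2 to 57.5% and 37.9 to 41.3%, so the first 2 groups overlapped and BMP4 lay below both. Fgfr3 held 40.7 to 47.5%, 32.6 to 40.5% and 36.5 to 41.2%, with overlap between the day 6 groups and between BMP4 and bFGF/EGF. Fgfr4 was at most 0.320% in any library. Counted as fragments, without division by length, the mean share of Fgfr2 was 3.47%, 11.4% and 25.3%. No test was run on the shares. The table gives one value per gene, so splice forms of the receptors, which decide the ligands they bind, were not analysed here.

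**Figure D3:**
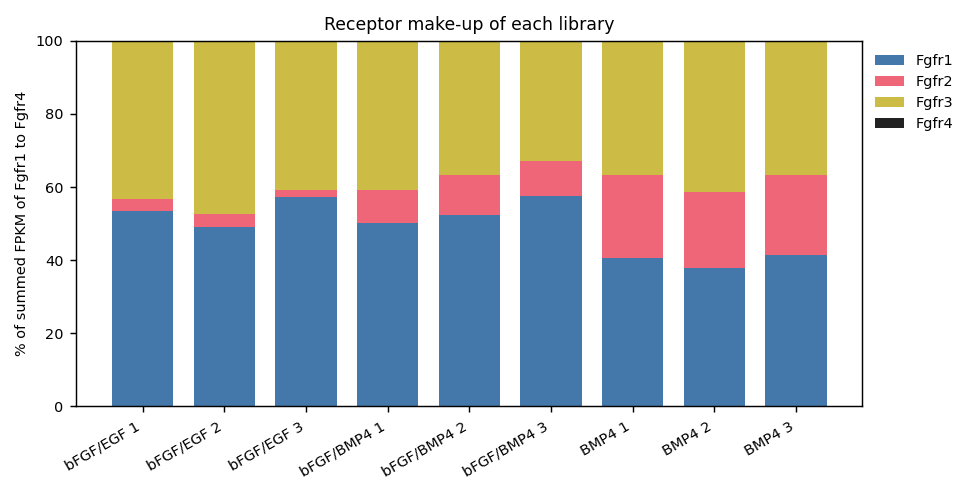
Share of Fgfr1, Fgfr2, Fgfr3 and Fgfr4 in their summed FPKM (vertical axis, percent) for each of the 9 libraries. The part taken by Fgfr2 steps up from 2.00 to 3.42% in bFGF/EGF to 20.8 to 22.8% in BMP4, and Fgfr4 is too small to be seen.

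Among the ligands, Fgf1 dominated. It encodes a ligand able to activate every FGF receptor, and the gene (ENSMUSG00000036585) lies on the minus strand at chr18:38971717-39077186. Its FPKM was 14.1, 12.5 and 20.3 in the control, 109.9, 120.8 and 141.5 with bFGF/BMP4 and 78.7, 70.1 and 89.5 with BMP4 alone. The 3 groups did not overlap, and both day 6 groups were far above the control. Fgf1 rose by a log2 fold change of 3.00 (SE 0.19, adjusted p = 1.2e-06) in bFGF/BMP4 and 2.36 (SE 0.19, adjusted p = 3.9e-06) in BMP4. BMP4 was below bFGF/BMP4 by -0.64 (adjusted p = 0.0347), which is under 2-fold. By mean FPKM, Fgf1 ranked 3570 of 20207 genes in the control, 249 with bFGF/BMP4 and 533 with BMP4 alone. It made up 96.0 to 99.5% of the summed FPKM of Fgf1, Fgf2 and Fgf9 in every library.

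Fgf2, the gene for bFGF itself (ENSMUSG00000037225, plus strand, chr3:37402473-37464257), was low but changed in steps. It was at 0.121, 0.186 and 0.409 FPKM in the control, 0.661, 1.03 and 0.722 with bFGF/BMP4 and 2.81, 2.56 and 1.73 with BMP4 alone, from 14 to 309 fragments per library. The groups did not overlap, and the BMP4 libraries, which received no bFGF, were all above the others. Fgf2 was higher than in bFGF/EGF by 1.48 in bFGF/BMP4 (SE 0.35, adjusted p = 0.0054) and by 2.92 in BMP4 (adjusted p = 6.0e-05) on the log2 scale. BMP4 exceeded bFGF/BMP4 by 1.44 (adjusted p = 0.0142), and without replicate 1 or 3 of bFGF/BMP4 or replicate 1 or 2 of BMP4 the adjusted p was 0.0540 to 0.0677. With a pseudocount of 1 the differences were 0.54 from bFGF/EGF to bFGF/BMP4 and 0.89 between the day 6 groups, both under 2-fold. Fgfr2 and Fgf2 were the genes called as rising from bFGF/EGF to bFGF/BMP4 and again to BMP4, a pattern called in 2.03% of all genes. Of 6837 exon bases of Fgf2, 3073 are shared with Nudt6, an antisense gene on the opposite strand, at 1.05 to 1.06, 1.10 to 1.87 and 1.56 to 2.09 FPKM in the 3 groups. Whether counting used the strand is not given in the sources used here, and without it the reads of these 2 genes cannot be told apart.

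Fgf9 (ENSMUSG00000021974, plus strand, chr14:58308004-58350316) encodes a secreted ligand that favours Fgfr3 and the mesenchymal forms of the other receptors. It had 0, 1 and 0 fragments in the control, 12, 4 and 3 with bFGF/BMP4 and 34, 28 and 23 with BMP4 alone. The BMP4 libraries stood clear of the rest, at 0.45, 0.372 and 0.30 FPKM, but every value was below 1 FPKM. The mean was 0.0045 FPKM in the control and 0.0869 with bFGF/BMP4, both under the 0.1 limit, so the gene was tested only because of its level in BMP4 (0.374), and its calls are given as a description. Fgf9 was higher with BMP4 alone, by a log2 fold change of 2.17 against bFGF/EGF (SE 0.38, adjusted p = 8.4e-04) and 1.38 against bFGF/BMP4 (adjusted p = 0.0280), and both understate the change because 0.1 was added to each value. As ratios of fragments after scaling, these were 87.7 (exact 95% interval 15.3 to 3504) and 4.22 (2.54 to 7.35), for counting error only. The second call was lost with quantile normalization (adjusted p = 0.0558) and without bFGF/BMP4 replicate 2 or 3 or BMP4 replicate 1 (0.0585 to 0.0769), and with a pseudocount of 1 both differences were under 2-fold (0.45 and 0.34). The difference of bFGF/BMP4 from bFGF/EGF was 0.79 (adjusted p = 0.117, not called), a ratio of fragments of 20.8 (exact 95% interval 3.31 to 864), and it was 3.04 (adjusted p = 0.0044) with limma-voom.

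Genes whose pattern over the 9 libraries was most like each member's are named as a description. Points share their groups, so a high correlation mostly states the same order of groups. The closest protein-coding genes by Pearson's r of log2(FPKM + 0.1) were Tril (0.995) and Tulp3 (0.994) for Fgfr1, and Slc39a12 (0.995) and Agtrap (0.993) for Fgfr2. Slc39a12, a zinc transporter gene, stood at 1.70, 43.7 and 168 FPKM in the 3 groups. For Fgfr3 they were Aard (0.976) and Nat8f4 (0.974), and for the sparsely counted Fgfr4 they were Cox11 (0.917) and Gucy1a1 (0.906). Fgfrl1 was matched by Rab31 (0.992), a small GTPase gene, and by Gpc4 (0.987), a heparan sulfate proteoglycan gene of the co-receptor list. Fgf1 was closest to Ahcyl2 (0.996) and Spire1 (0.996), Fgf2 to Ednra (0.989) and Apobec1 (0.988), and Fgf9 to Pnma8b (0.994) and Ramp2 (0.991). Among the 8 genes themselves, r was highest between Fgfr1 and Fgfrl1 (0.980) and between Fgf2 and Fgf9 (0.906).

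The other FGF ligand genes were mostly below the limit. Of 19 listed, 7 passed the limit of 0.1 mean FPKM, and 1 was higher and 2 were lower in bFGF/BMP4, 1 higher and 1 lower in BMP4, each compared with bFGF/EGF, and 1 was lower in BMP4 than in bFGF/BMP4. Their median log2 fold changes were 0.26, -0.22 and -0.45. In these comparisons 30.6%, 36.6% and 13.5% of all genes tested were called in either direction. Fgf11, an intracellular FGF homologous factor, was at 2.01, 2.78 and 3.20 FPKM in bFGF/EGF and at 7.45 to 11.0 in bFGF/BMP4, and rose by 1.77 (SE 0.24, adjusted p = 2.0e-04). Fgf12, of the same intracellular family that modulates sodium channels, was at 2.70, 2.86 and 4.34 FPKM in bFGF/BMP4 and 1.38, 1.19 and 1.72 in BMP4, lower by -1.13 (adjusted p = 0.0077), with -0.92 without bFGF/BMP4 replicate 3 and -0.81 with a pseudocount of 1. The groups of neither pair overlapped.

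Of 19 co-receptors and heparan sulfate proteoglycans, which hold FGFs at the membrane, 16 were tested. In bFGF/BMP4, 8 were higher and 3 lower than in bFGF/EGF (median 0.77), in BMP4 5 were higher and 2 lower (median 0.47), and between the day 6 groups 3 were higher and 4 lower in BMP4 (median 0.01). Of all genes, 30.6%, 36.6% and 13.5% were called in either direction in these comparisons. Gpc5, a glypican, was at 0.951, 0.667 and 0.737 FPKM in the control, 29.9, 27.2 and 27.5 with bFGF/BMP4 and 1.91, 3.34 and 4.11 with BMP4 alone. The bFGF/BMP4 libraries stood apart from all others, and the log2 fold changes were 5.01 against bFGF/EGF (adjusted p = 3.4e-07) and -3.20 for BMP4 against bFGF/BMP4 (adjusted p = 2.0e-05). Gpc3, another glypican, was at 3.84, 5.91 and 7.46 FPKM in bFGF/BMP4 and at 0.321, 0.574 and 0.563 in BMP4, lower by -3.30 (adjusted p = 1.2e-04). Like Fgfrl1, both glypican genes were called as highest in bFGF/BMP4. Gpc5 and Gpc3 were named by their changes in the comparisons that define this pattern, so the likeness is a description. Gpc3 met the naming limit of 1 mean FPKM only through bFGF/BMP4 (5.74, beside 0.284 in bFGF/EGF and 0.486 in BMP4). In the same list Gpc4 and Sdc3 were also called in this pattern, while Sdc1 was called as lowest in bFGF/BMP4 and Sdc4 as highest in BMP4.

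Another list holds enzymes that build and trim heparan sulfate. Of 22 listed, 19 were tested, with 3 higher and 5 lower in bFGF/BMP4 and 4 higher and 3 lower in BMP4 than in bFGF/EGF, and 3 higher and 2 lower in BMP4 than in bFGF/BMP4. Of all genes tested, 30.6%, 36.6% and 13.5% were called in either direction, and the list's medians were 0.12, 0.40 and -0.15. Hs6st3, a 6-O-sulfotransferase, was at 0.138, 0.0740 and 0.0331 FPKM in bFGF/EGF and 2.73, 2.52 and 1.83 in bFGF/BMP4, a log2 fold change of 3.78 (adjusted p = 7.1e-05). Hs3st3a1, a 3-O-sulfotransferase, was at 3.37, 3.31 and 4.75 FPKM in bFGF/BMP4 and 0.844, 1.19 and 1.12 in BMP4, lower by -1.75 (adjusted p = 4.9e-04).

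The adaptors and the ERK cascade, carry the signal from the receptors. All 20 were tested, with 1 higher and 1 lower in bFGF/BMP4, 3 higher and none lower in BMP4 compared with bFGF/EGF, and none called between the day 6 groups, beside 30.6%, 36.6% and 13.5% of all genes called in either direction. With no fold threshold, 3 were higher and 2 lower in BMP4 than in bFGF/BMP4 (limma). Nras, a RAS GTPase gene, was at 32.1, 33.2 and 33.7 FPKM in bFGF/EGF and 12.3, 10.8 and 12.9 in bFGF/BMP4, and fell by 1.45 on the log2 scale (adjusted p = 2.5e-06). Frs2, the docking protein of the receptors, was named here after its values were seen, and it was at 7.28 to 7.99 FPKM in bFGF/EGF and 10.6 to 12.6 in the day 6 libraries. It was not called in any comparison. Its log2 fold changes against bFGF/EGF were 0.60 in bFGF/BMP4 and 0.63 in BMP4, both under 2-fold. Groups did not overlap for 57.7% and 60.4% of all genes in these comparisons.

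The feedback and target genes of FGF/ERK signaling include the Sprouty, Spred, Dusp and Etv families. Of 18 tested, 0 were higher and 8 lower in bFGF/BMP4 and 0 higher and 14 lower in BMP4 than in bFGF/EGF, and 1 was higher and 12 were lower in BMP4 than in bFGF/BMP4, with medians of -0.65, -2.91 and -1.64. Of all genes tested, 14.1%, 15.4% and 5.14% were called lower in these comparisons. Etv4, an ETS factor induced by FGF, was at 37.0, 41.2 and 32.4 FPKM in the control, 36.0, 35.2 and 37.0 with bFGF/BMP4 and 0.357, 0.656 and 0.957 with BMP4 alone. The first 2 groups overlapped and BMP4 lay far below, lower by -5.66 than bFGF/BMP4 (adjusted p = 1.3e-06). Ccnd1, the gene for cyclin D1, fell by 5.88 on the log2 scale in bFGF/BMP4 compared with bFGF/EGF (adjusted p = 7.1e-08), from a mean of 523 FPKM to one of 9.13. In BMP4, where 14 of these 18 target genes were lower than in bFGF/EGF, the receptor genes Fgfr1, Fgfr2 and Fgfr3 all had a higher FPKM in each library than in any bFGF/EGF library. The same held for these receptor genes in bFGF/BMP4, where 8 of the 18 were lower. Groups did not overlap for 60.4% and 57.7% of all genes in these comparisons. Among the receptor genes, only Fgfr2 was called in BMP4, and Fgfr1 and Fgfr2 in bFGF/BMP4. A link between receptor and target genes was not tested.

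**Figure D4:**
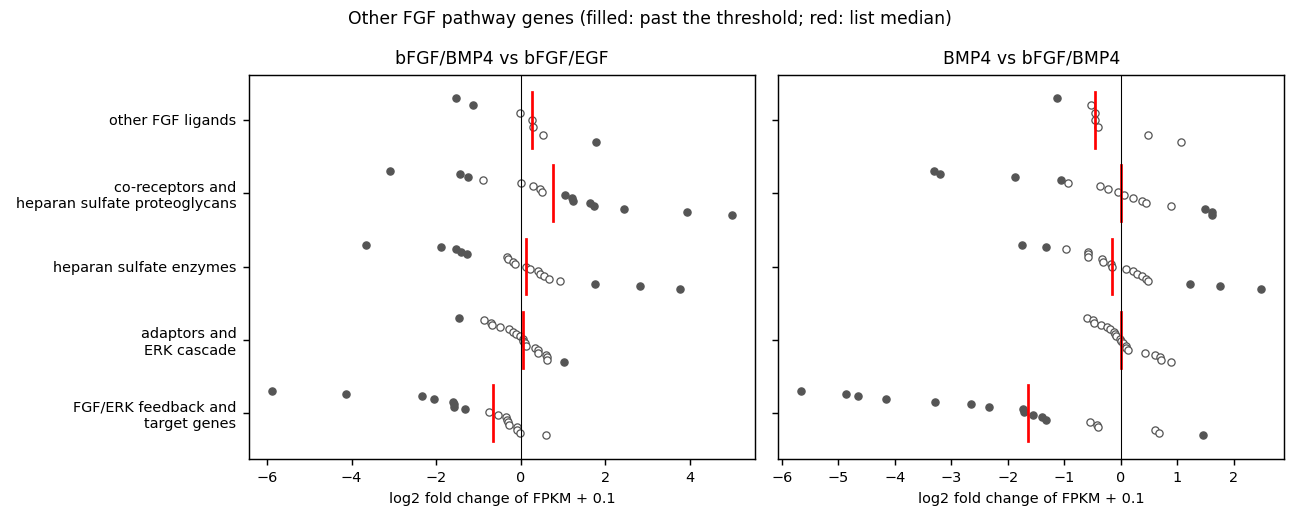
Log2 fold changes of FPKM + 0.1 (horizontal axes) of the other FGF pathway genes in 5 lists, for bFGF/BMP4 against bFGF/EGF and BMP4 against bFGF/BMP4. Each point is a gene, filled where it passed the threshold, and red lines are list medians. Most feedback and target genes lie below 0 in the second comparison (12 of 18 called lower), while no adaptor or ERK cascade gene was called there.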

How the data were processed

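RNA was measured in 9 libraries, 3 per group. Per the labels, the authors cleaned paired-end reads with fastp 0.19.7, aligned them to mm39 with HISAT2 2.0.5 and counted fragments with featureCounts 1.5.0-p3, and they deposited FPKM values (fragments divided by gene length and library size). The annotation release and the use of strand are not given in the sources used here. The authors used DESeq2 for their own tests. Here, log2(FPKM + 0.1) was tested with limma 3.58.1 (trend, R 4.3.3) for 20207 genes averaging 0.1 FPKM or more, all 9 libraries in the fit, with Benjamini-Hochberg adjustment, and the study's threshold (adjusted p of at most 0.05, fold of at least 2) was kept. Python 3.11.15 and matplotlib 3.10.9 made the tables and figures. Symbols came from GENCODE vM39 (54749 of 55414 Ensembl identifiers found, 290 other genes named only by the authors). Whole fragment numbers were rebuilt from the FPKM for all 30860 genes above 0 (tolerance 0.03), which is trivial for genes above 0 in a single library.

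The 8 members and the gene lists were chosen with earlier results of these data known. Named pathway genes were, per list, the called gene of mean FPKM of at least 1 with the largest change in bFGF/BMP4 against bFGF/EGF and in BMP4 against bFGF/BMP4, and, per member, the 2 most correlated protein-coding genes. Upstream stretches came from RefSeq, matched to GRCm39, and 6 of the 8 members had one. The method was tested on simulated data. The alternatives were other scalings (TPM, median-ratio, quantile), a pseudocount of 1, other filters on low values, limma-voom, a replicate block, fits of 2 groups, no fold threshold and each library left out.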

Additional observations from a re-analysis of the deposited data

How the results depend on the processing

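Of 423 values of the 8 genes under the alternatives, 388 kept their direction and side of the threshold, 27 lost the call, 6 gained it and 2 changed sign. The genes called numbered 3 rather than 5 in bFGF/BMP4 against bFGF/EGF with a pseudocount of 1, and 1 rather than 4 in BMP4 against bFGF/BMP4. With that pseudocount 1723 of all genes were called higher and 1821 lower in the first comparison, rather than 3327 and 2847. In BMP4 against bFGF/BMP4 they numbered 890 and 559, rather than 1699 and 1039. With no fold threshold, 7 rather than 4 of the 8 genes and 58 rather than 33 pathway genes were called in BMP4 against bFGF/EGF. Of all genes tested, 54.9% rather than 36.6% were called there. Leaving out each library in turn gave 4 to 5, 4 to 5 and 1 to 4 called members in the 3 comparisons, and 29 to 32, 32 to 37 and 24 to 28 pathway genes. The lowest counts in BMP4 against bFGF/BMP4 were 1 without bFGF/BMP4 replicate 3 or BMP4 replicate 1, and 2 without bFGF/BMP4 replicate 1 or BMP4 replicate 2. Without bFGF/BMP4 replicate 3, 1512 of all genes were called higher and 893 lower in that comparison. Without BMP4 replicate 1 these were 1496 and 958. Among the genes named by the rules, the differences that changed sign were all uncalled: Fgfr4 in BMP4 against bFGF/EGF (-0.18 with quantile normalization), Fgfr3 in BMP4 against bFGF/BMP4 (-0.15 to 0.0037 with a library left out), Etv4 in bFGF/BMP4 against bFGF/EGF (0.089 with quantile normalization, -0.11 to 0.058 with a library left out), Fgf12 there (-0.22 to 0.13 with a library left out) and Hs6st3 in BMP4 against bFGF/BMP4 (-0.087 to 0.78 with a library left out). The cause of these changes was not tested.

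The replicate numbers are shared by the groups, but libraries of the same number correlated in their deviations at -0.084 to 0.125 over 9 pairs, so they were not treated as pairs. With the replicate block, 5, 4 and 3 members and 32, 33 and 26 pathway genes were called, and Fgf9 in BMP4 against bFGF/BMP4 was the call lost (adjusted p = 0.0501, limma). Of all genes, 1616 were then called higher and 996 lower in that comparison, rather than 1699 and 1039. Depth limits Fgfr4 and Fgf9, which had at most 16 and 34 fragments in a library. Quantile normalization moved the median of all genes in BMP4 against bFGF/EGF from 0.10 to -0.03.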
